A study of Mus musculus with 18 samples.

Results

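The effect of TNF on differentiating astrocytes was compared between an early and a late time, gene by gene. The quantity is an interaction: the log2 TNF effect (treated against untreated) at 72 h minus the same effect at 24 h. It was estimated for every one of the 20067 genes that passed a filter on low counts, of 54838 genes in the deposited table, and it uses 12 of the 18 libraries, 3 replicates in each of 4 conditions. A negative value means that the TNF effect was lower at 72 h than at 24 h, and a positive value that it was higher.

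The cells were primary neural stem cells from the ventricular zone of wild type C57BL/6J mouse brains at embryonic day 14, grown as free-floating neurospheres (NSPs) with EGF. They were differentiated in medium with 10% fetal bovine serum for 24 h or 72 h, without TNF or with TNF at 50 ng/ml throughout, so that all 4 conditions share the serum and the withdrawal of EGF. The other 6 libraries, from proliferating NSPs and from cells differentiated for 1 week without TNF, entered the fit through the gene filter, the normalization and the estimate of the spread, and are used below for levels. Ribosomal RNA was removed before stranded sequencing, and total counts in the 12 libraries ran from 12509693 to 19106651 (median 16105200). The study's methods describe cells isolated from individual brains and speak, for its data in general, of independent biological experiments. The labels number the replicates without tying a library to a brain or culture, so the p-values measure the spread between these samples, which may in part be technical.

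TNF is a cytokine released by microglia and other immune cells. Its receptors free NF-kB from the inhibitor encoded by *Nfkbia*, and NF-kB then switches on chemokines, acute phase genes and its own inhibitors. In differentiating neural stem cells this inflammatory programme meets a second one, in which progenitor genes are shut off and genes of glucose transport, solute transport and secretion are turned on. A gene can therefore show an interaction because its response to TNF faded, or because its untreated level changed with time in a way that TNF-treated cells did not share.

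The labelled cell type was checked against its markers. Levels are given in CPM, which are counts scaled to library size. The marker values here use the total counts without TMM factors, whereas the gene levels in later paragraphs are TMM-normalised. The summed level of 8 astrocyte markers was 5220 to 5810 CPM at 24 h and 4820 to 6230 CPM at 24 h with TNF. It was 5970 to 7960 CPM at 72 h and 3780 to 4880 CPM at 72 h with TNF. The 4 neural stem cell markers summed to 3520 to 4140, 4300 to 4860, 3790 to 4730 and 3230 to 4890 CPM in the same order, a range that overlapped that of the astrocyte markers in both TNF conditions. Neuron markers summed to 37.6 to 45.7, 27.8 to 59.3, 9.23 to 9.68 and 8.33 to 17.6 CPM. Oligodendrocyte lineage markers summed to 340 to 405 CPM at 24 h, 127 to 353 CPM at 24 h with TNF, 74.8 to 79.6 CPM at 72 h and 72.5 to 176 CPM at 72 h with TNF. The 3 ependymal markers summed to 110 to 126, 122 to 188, 308 to 377 and 259 to 360 CPM in the same order. Microglial markers reached at most 3.84 CPM in sum in any library, with *Aif1*, *Cx3cr1*, *Tmem119*, *Csf1r* and *Ptprc* all under 1 CPM, and endothelial markers at most 0.887 CPM. The 5 pericyte and fibroblast markers summed to 1.67 to 2.08, 2.8 to 5.83, 2.3 to 3.66 and 2.37 to 4.73 CPM in the order used above. Of these *Pdgfrb*, *Lum*, *Dcn* and *Col1a1* were under 1 CPM in every library. In these bulk samples fewer cells of a type and less RNA per cell cannot be told apart.

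A pair of libraries stood apart before any test. Replicate 1 at 24 h with TNF and replicate 1 at 72 h with TNF had 6.24% and 8.01% of their counts on mitochondrial genes, against 2.43% to 5.02% in the other 10 libraries. They also held the highest *Gfap* level of their condition, with 1870 CPM against 463 and 596 CPM at 24 h with TNF and 1020 CPM against 217 and 229 CPM at 72 h with TNF. Leaving both out gave 138 genes with an interaction, 57 of them shared with the 92 of the full fit.

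Of the 16 genes with a lower effect at 72 h that TNF raised at 24 h, 11 had a promoter window in RefSeq (GRCm38.p6), and in 2 of them the 250 bases before the start held the NF-kB consensus on either strand. These 2, *Cxcl10* and *Ier3*, are shown because they held a match, a choice made after the search, and the other windows are not printed. Capitals mark the match to the consensus. The *Cxcl10* window, chr5:92348890-92349139 on the minus strand, held 2 matches, which begin 159 and 103 bases before the start, and the *Ier3* window, chr17:35821463-35821712 on the plus strand, held 1, which begins 92 bases before it.
*Cxcl10*: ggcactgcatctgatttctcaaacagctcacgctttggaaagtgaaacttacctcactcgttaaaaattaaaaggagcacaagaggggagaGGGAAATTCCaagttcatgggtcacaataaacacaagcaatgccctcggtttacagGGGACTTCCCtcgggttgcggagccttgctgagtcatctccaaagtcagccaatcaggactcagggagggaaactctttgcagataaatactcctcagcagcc
*Ier3*: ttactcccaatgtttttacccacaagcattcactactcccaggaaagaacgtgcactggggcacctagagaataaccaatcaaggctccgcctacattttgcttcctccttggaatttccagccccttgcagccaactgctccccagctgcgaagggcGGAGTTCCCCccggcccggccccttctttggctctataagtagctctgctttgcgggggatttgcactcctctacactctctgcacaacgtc

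The consensus stood in 18.2% of these windows (2 of 11), in 10.9% of those of all genes with a lower effect (5 of 46), in 10.5% of those with a higher effect (2 of 19), in 13.1% of those of genes raised by TNF at 24 h (41 of 314) and in 5.27% of all 11888 genes tested that had a window. The core of the interferon-stimulated response element, on either strand, was found in 3 of 46 windows of genes with a lower effect (6.52%) and in 2.96% of all, and an AP-1 element, TGANTCA on either strand, in 4 of 46 (8.70%) and in 5.49% of all. The *Cxcl10* window held all 3 motifs. Counts this small describe these windows only, and a window without a match says nothing of the factor.

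At an adjusted p-value under 0.05 the interaction was called for 92 of 20067 genes (0.458%), 65 with a lower effect at 72 h (0.324%) and 27 with a higher one (0.135%), and 2018 genes had an unadjusted p-value under 0.05. TNF itself was called for 703 genes at 24 h (3.50%), 438 higher (2.18%) and 265 lower (1.32%), and for 1919 at 72 h (9.56%), 873 higher (4.35%) and 1046 lower (5.21%). All TNF-treated libraries lay above all untreated ones in 10.7% of the genes tested at 24 h, and below them in 10.1%. At 72 h these shares were 12.7% and 13.4%. With only the 12 libraries, which changed the gene filter (19336 genes tested), the normalization and the spread together, the interaction was called for 38 genes, 34 of them among the 92. DESeq2, on all 18 libraries, called 244 (92 higher, 152 lower), 88 of them among the 92. The fit by limma voom with sample quality weights used only the 12 libraries, on which edgeR called the 38. It called 1835 (949 higher, 886 lower), with all 92 among them. Neither the count nor the excess of lower calls held across these fits, which differ in tool, weights and libraries. Leaving out each library in turn gave 25 to 133 genes. The lowest counts came without 72 h replicate 2 or 3 (25 each) and without 24 h replicate 1, 2 or 3 (27, 31 and 28), followed by 50 without replicate 3 and 58 without replicate 2 at 72 h with TNF. The TNF effect at 24 h was called for 367, 360 and 364 genes without 24 h replicate 1, 2 or 3, and that at 72 h for 2922, 965 and 1049 genes without 72 h replicate 1, 2 or 3. In all 12 of these fits 20 genes kept the interaction, listed here whatever their level and, for those outside the rule on named genes, after their values were seen: *Elobl*, *Ccl2*, *F13a1*, *Cyp1a1*, *Chgb*, *Tmem266*, *Fgl2*, *Scara5*, *Glycam1*, *A2m*, *Scpep1*, *Chrdl1*, *Sel1l3*, *Clu*, *Dbndd2*, *Slc2a1*, *Atp6v0a2*, *Slc38a3*, *Jag1* and *Mgat5b*. Of these *Elobl* and *Slc2a1* lost the call in the fit with a term for the replicate number that leaves 72 h replicate 3 unpaired (adjusted p = 0.0514 and 0.053).

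Across genes the effects at the 2 times went together, with Pearson's r of 0.438 over the 20067 genes, which share libraries and are not independent. Of the 438 genes raised by TNF at 24 h, 266 were also raised at 72 h (60.7% of these and 30.5% of the 873), and of the 265 lowered at 24 h, 156 were also lowered at 72 h (58.9% of these and 14.9% of the 1046). Genes called in opposite directions at the 2 times numbered 6, and all 6 were raised at 24 h and lowered at 72 h.

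**Figure D1:**
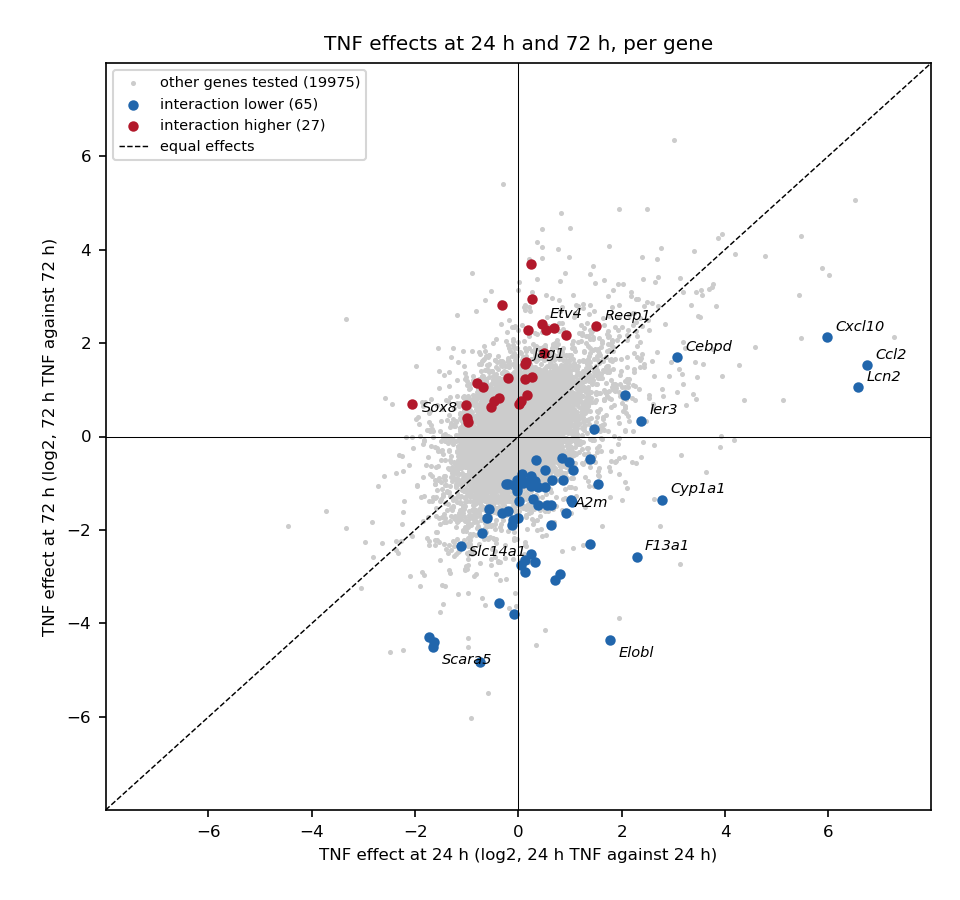
Each point is 1 of 20067 genes, with the log2 TNF effect at 24 h on the x axis and at 72 h on the y axis. Blue points are the 65 genes with a lower effect at 72 h, which lie below the dashed line of equal effects, and red points the 27 with a higher effect, which lie above it.

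The shape of the interaction was much the same for most of the genes. Of the 65 genes with a lower effect, 62 rose from 24 h to 72 h without TNF, whereas with TNF 15 rose, 8 fell and 42 were not called. The exceptions without TNF were *Myh8*, which fell, and *Fgl2* and *S100b*, which were not called. The median change from 24 h to 72 h in the 65 genes was 2.17 (log2) without TNF and 0.08 with it. Of the 27 genes with a higher effect, 26 fell from 24 h to 72 h without TNF, and with TNF 12 fell, 14 were not called and *Reep1* rose. Their median change was -2.3 without TNF and -0.46 with it. Without TNF, 4970 genes changed over this interval (24.8%), 2439 higher (12.2%) and 2531 lower (12.6%), and with TNF 2670 (13.3%), 1079 higher (5.38%) and 1591 lower (7.93%). The untreated libraries enter both the interaction and the change without TNF, so these counts describe the shape and are no separate test.

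**Figure D2:**
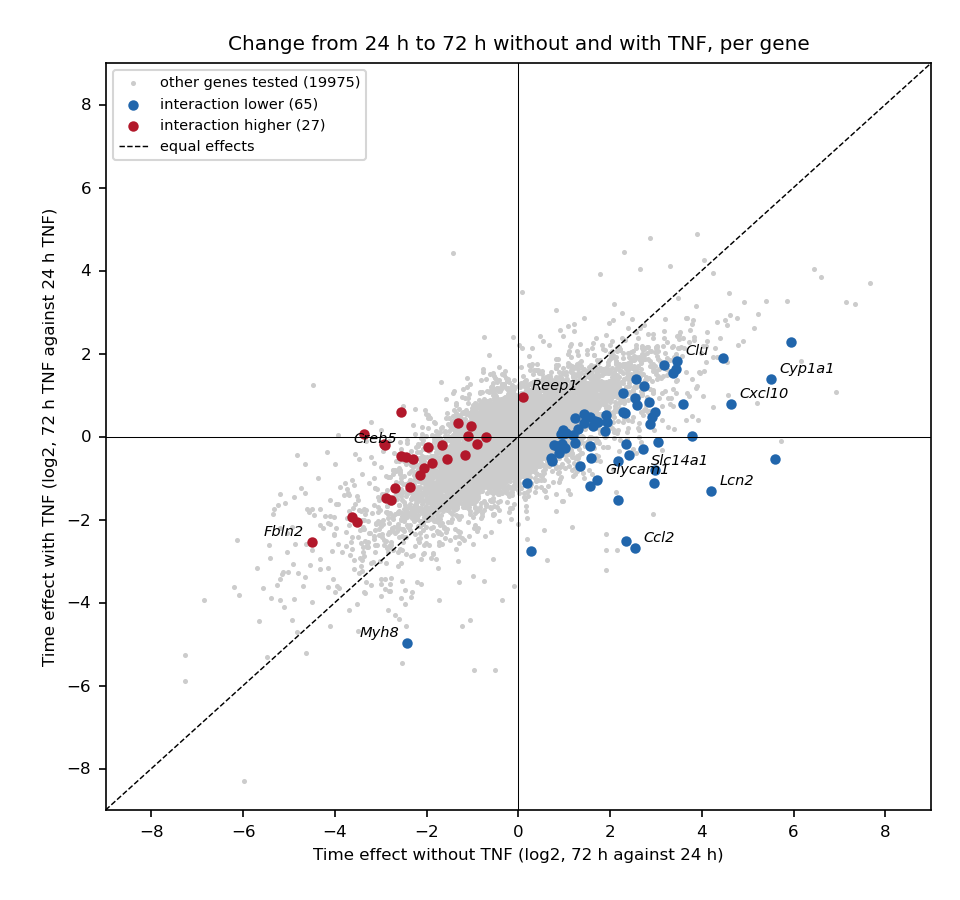
Each point is 1 gene, with the log2 change from 24 h to 72 h without TNF on the x axis and with TNF on the y axis, and the dashed line marks equal changes. The 65 blue genes (lower interaction) lie mostly at positive x with y near 0, and the 27 red genes (higher interaction) mostly at negative x.

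By their effect at each time the 65 genes fell into 5 groups. TNF lowered 42 at 72 h without a call at 24 h, lowered 7 at both times, raised 6 at 24 h without a call at 72 h, raised 4 at both times and raised 6 at 24 h while it lowered them at 72 h. Of the 27 genes, 21 were raised at 72 h without a call at 24 h, 2 were raised at both times and 4 were lowered at 24 h without a call at 72 h. Since a call at 1 time and none at the other does not show a difference, the interaction is the test of it, and these groups only sort its 92 genes.

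*Ccl2* (chr11:82035571-82037453, mm10), the chemokine that attracts monocytes, had the clearest early response. Its level was 0.151, 0.112 and 0.489 CPM at 24 h, 25.1, 28.3 and 24.5 CPM at 24 h with TNF, 0.832, 1.23 and 2.04 CPM at 72 h and 3.94, 3.77 and 4.38 CPM at 72 h with TNF. TNF-treated libraries lay above the untreated ones at both times, and the level with TNF fell from 24 h to 72 h while the untreated level rose. The TNF effect was 6.75 (log2) at 24 h and 1.53 at 72 h, a difference of -5.23 ± 0.57 (SE, adjusted p = 0.000255), which was called in the 12-library fit as well. The largest count in any untreated 24 h library was 6, so the size of the 24 h fold rests on few reads.

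*Cxcl10* (chr5:92346638-92348889), a chemokine for T cells and a member of the pan-reactive astrocyte list, behaved differently in absolute terms. Its level was 0, 0 and 0.326 CPM at 24 h, 7.75, 5.0 and 6.25 CPM at 24 h with TNF, 2.04, 2.45 and 2.92 CPM at 72 h and 5.35, 14.6 and 12.8 CPM at 72 h with TNF. Every treated library exceeded every untreated one at the same time, and the highest levels were at 72 h with TNF, not at 24 h. The log2 effect was 5.97 at 24 h and 2.13 at 72 h (interaction -3.84 ± 0.82, adjusted p = 0.0444), while the difference in CPM was 6.22 at 24 h and 8.43 at 72 h. Without 24 h replicate 3, the only untreated 24 h library with reads (4 counts), the log2 interaction of *Cxcl10* was -7.56. The interaction of *Cxcl10* was not called in the 12-library fit (adjusted p = 0.106), it was kept in 4 of the 12 fits without 1 library, and its reads overlap exons of *Art3* on the other strand.

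*Lcn2*, which encodes the iron-binding lipocalin 2 and marks reactive astrocytes, was at 0, 0 and 0.326 CPM at 24 h and at 14.8, 6.26 and 7.72 CPM at 24 h with TNF. At 72 h it was at 1.97, 1.9 and 1.71 CPM without TNF and at 7.66, 1.74 and 2.06 CPM with it. The groups did not overlap at 24 h. They overlapped at 72 h, where replicate 1 with TNF stood far above the other 5 libraries. The effect was 6.57 at 24 h (adjusted p = 0.000166) and 1.05 at 72 h (adjusted p = 0.24), and the interaction was -5.52 ± 1.05 (adjusted p = 0.0275, and 0.0666 with the 12 libraries alone). It was -9.25 without 24 h replicate 3, the only untreated 24 h library with *Lcn2* reads, and was kept in 7 of the 12 fits without 1 library.

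*Ier3*, an immediate early gene that protects cells from TNF-induced death, was at 0.302, 0.503 and 0.407 CPM at 24 h, 2.33, 1.64 and 2.54 CPM at 24 h with TNF, 0.757, 1.17 and 1.21 CPM at 72 h and 1.24, 1.16 and 1.63 CPM at 72 h with TNF. The groups were apart at 24 h and overlapped at 72 h. Its effect was 2.38 at 24 h and 0.34 at 72 h (interaction -2.04 ± 0.44, adjusted p = 0.0447, and 0.0997 with the 12 libraries). *Cebpd*, a C/EBP transcription factor of the acute phase response named here after its values were seen, was at 6.57, 9.34 and 9.94 CPM at 24 h, 67.1, 67.0 and 83.5 CPM at 24 h with TNF, 18.5, 21.2 and 20.9 CPM at 72 h and 83.4, 49.1 and 63.4 CPM at 72 h with TNF. Its levels with TNF overlapped between the times, and the untreated level was higher at 72 h. The interaction of *Cebpd* was -1.38 ± 0.26 (adjusted p = 0.0232, and 0.0666 with the 12 libraries).

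The 6 genes whose effect changed sign, chosen after their values were seen, were *F13a1*, *Cyp1a1*, *A2m*, *Cfap52*, *Chrdl1* and *Gcnt2*. *A2m*, the protease inhibitor alpha-2-macroglobulin, was the most abundant, with 68.8, 67.5 and 67.1 CPM at 24 h, 199, 93.1 and 94.8 CPM at 24 h with TNF, 440, 557 and 498 CPM at 72 h and 121, 185 and 175 CPM at 72 h with TNF. All treated libraries were above the untreated ones at 24 h and below them at 72 h. The effect was 0.93 at 24 h and -1.64 at 72 h, and the interaction -2.56 ± 0.33 (adjusted p = 0.001). The highest of the 24 h levels, 199 CPM, came from replicate 1 with TNF, which stood apart as given above.

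*Chrdl1*, a secreted BMP antagonist that astrocytes use in synapse maturation, was at 8.31, 8.67 and 7.58 CPM at 24 h, 15.6, 15.7 and 13.7 CPM at 24 h with TNF, 74.5, 93 and 99 CPM at 72 h and 53.2, 47.9 and 38.1 CPM at 72 h with TNF. The untreated level rose over this interval and so did the treated one, but less. The effect was 0.87 at 24 h and -0.94 at 72 h, and the interaction of -1.81 ± 0.20 (adjusted p = 0.000255) had the smallest adjusted p-value of the fit together with *Ccl2*. *F13a1*, the A chain of coagulation factor XIII, stayed low, with 0.163 to 0.302 CPM at 24 h, 0.82 to 1.18 CPM at 24 h with TNF, 0.832 to 1.35 CPM at 72 h and 0.125 to 0.232 CPM at 72 h with TNF, and its interaction was -4.86 ± 0.66 (adjusted p = 0.00158). DESeq2 did not test *F13a1* for the interaction, and its reads overlap *Gm30489* on the other strand.

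*Cyp1a1*, the cytochrome P450 induced through the aryl hydrocarbon receptor, was at 0.0756, 0.0559 and 0.0815 CPM at 24 h and at 0.693, 0.522 and 0.354 CPM at 24 h with TNF. These are 3 counts against 24 over the 3 libraries, a ratio of 7.53 with a 95% counting interval of 2.29 to 39.1. At 72 h it was at 3.33, 2.94 and 4.18 CPM without TNF and at 1.8, 1.16 and 1.13 CPM with it, and the groups were apart. The interaction of *Cyp1a1* was -4.13 ± 0.63 (adjusted p = 0.00665).

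**Figure D3:**
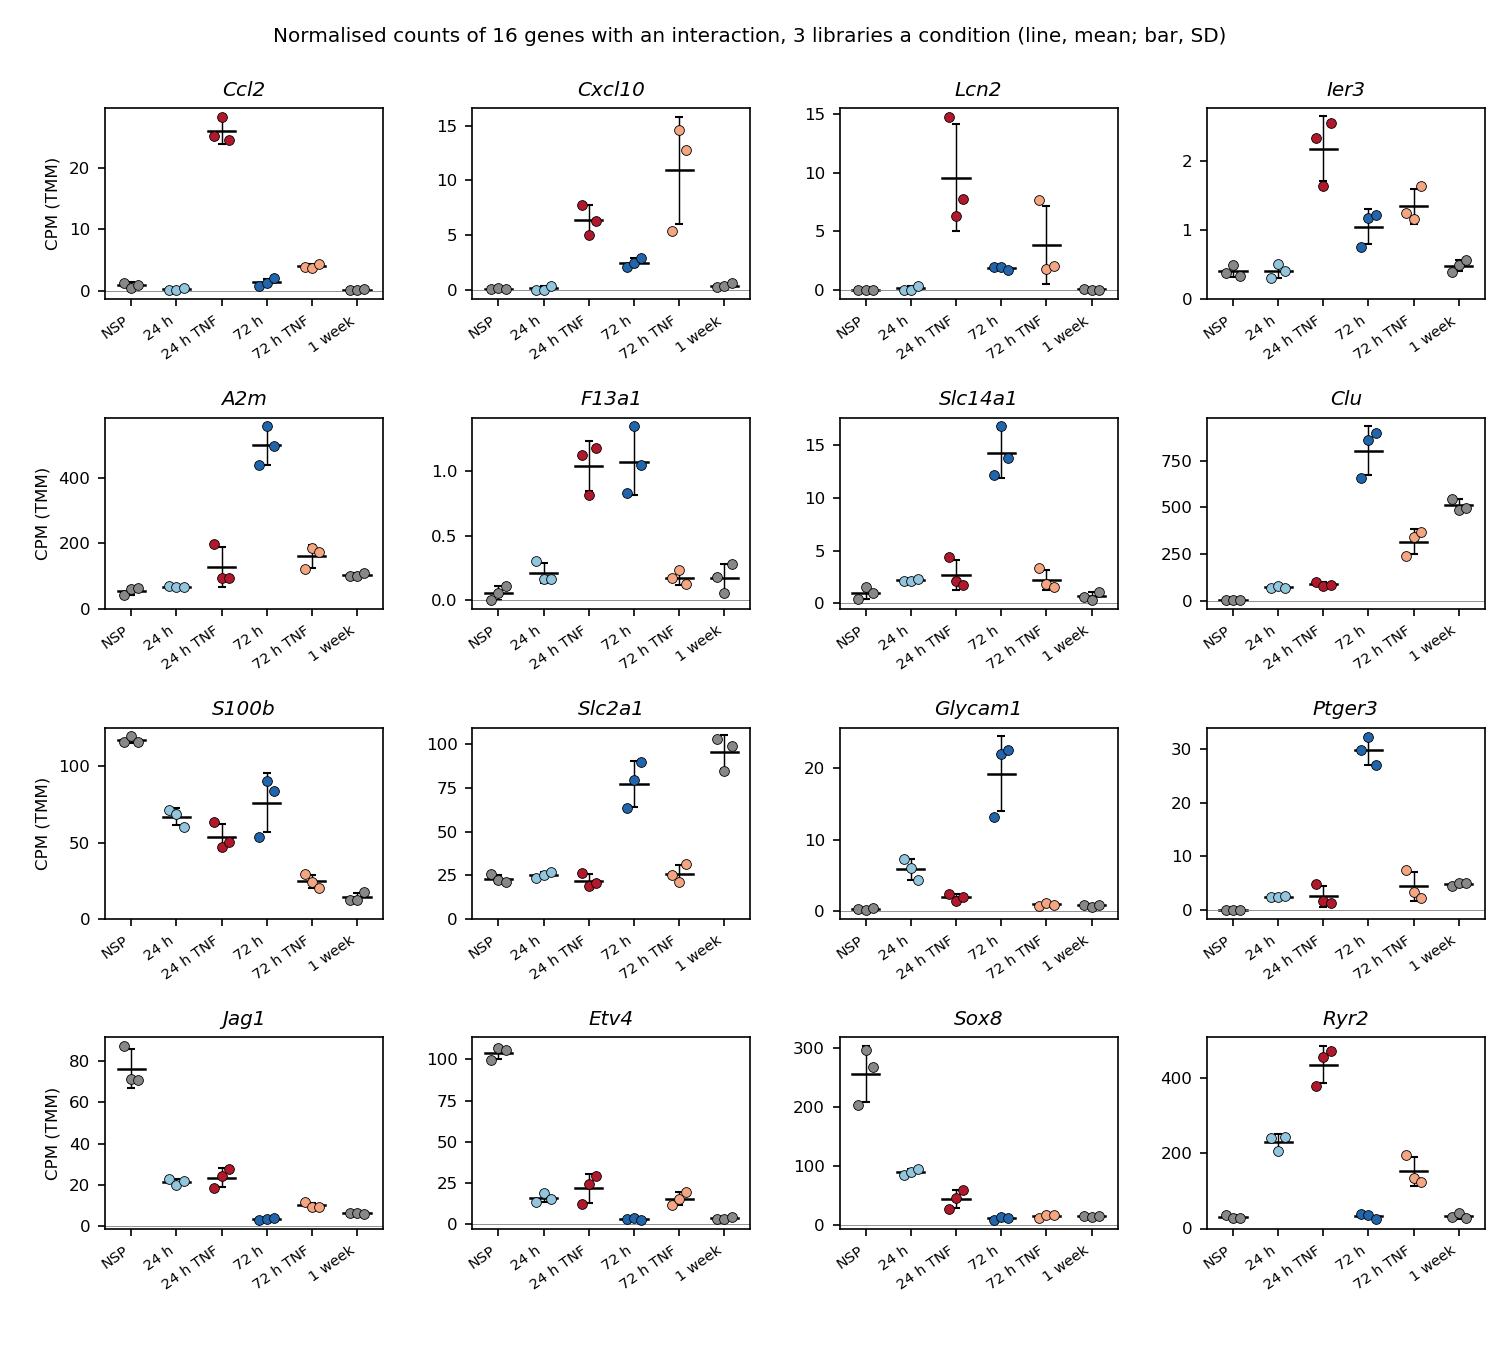
Normalised counts (CPM, linear axis) of 16 genes in the 3 libraries of each of 6 conditions, with the mean as a line and the SD as a bar. *Ccl2* and *Lcn2* are highest at 24 h with TNF, *A2m*, *Slc14a1*, *Clu*, *Glycam1* and *Ptger3* at 72 h without TNF, and *Jag1*, *Etv4* and *Sox8* in NSPs.

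The largest group, 42 genes, was lowered by TNF at 72 h without a call at 24 h. *Elobl*, a gene like that of the elongin B subunit, with which it may share reads, had the largest fitted interaction of the 92 genes. It had 1.28, 1.9 and 1.55 CPM at 24 h, 12.5, 2.09 and 1.83 CPM at 24 h with TNF, 63.7, 76.4 and 93.3 CPM at 72 h and 1.01, 5.34 and 5.07 CPM at 72 h with TNF. Its untreated level at 72 h was well above every other library, including the 1 week ones at 3.18, 3.56 and 5.0 CPM. The interaction of *Elobl* was -6.14 ± 0.87 (adjusted p = 0.00348). It was -4.62 without 24 h TNF replicate 1, the library with 12.5 CPM, which is smaller in size than *Lcn2* (-5.04) and *Ccl2* (-5.22) in the same fit, and -4.19 without replicate 1 of both TNF conditions.

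*Clu*, which encodes the secreted chaperone clusterin and is in the mature astrocyte list, was at 68.7, 80.8 and 71.5 CPM at 24 h, 101, 82.8 and 87.6 CPM at 24 h with TNF, 655, 859 and 895 CPM at 72 h and 243, 344 and 367 CPM at 72 h with TNF. Cells with TNF also gained *Clu* over this interval, by 1.81 (log2) against 3.45 without TNF. The interaction was -1.63 ± 0.26 (adjusted p = 0.00775) and was kept in every fit that left out 1 library. *S100b*, the calcium-binding protein used as an astrocyte marker, was at 71.2, 68.8 and 60.5 CPM at 24 h, 63.3, 47.2 and 50.2 CPM at 24 h with TNF, 53.9, 90.1 and 84.0 CPM at 72 h and 29.2, 23.9 and 20.3 CPM at 72 h with TNF. Without TNF it was not called between the times (0.19), and with TNF it fell by 1.13 on the log2 scale. The interaction of *S100b* was -1.32 ± 0.26 (adjusted p = 0.0309, and 0.0666 with the 12 libraries).

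Transporters were among these genes. *Slc2a1*, the glucose transporter GLUT1 of astrocytes and the blood-brain barrier, was at 23.3, 24.9 and 26.8 CPM at 24 h, 26.0, 18.5 and 20.7 CPM at 24 h with TNF, 63.4, 79.3 and 89.7 CPM at 72 h and 24.9, 21.1 and 31.4 CPM at 72 h with TNF. The untreated level rose and the treated levels of the 2 times overlapped, with an interaction of -1.39 ± 0.23 (adjusted p = 0.0114), and its reads overlap *Gm12868* on the other strand. *Slc30a1*, the zinc exporter ZnT1, ran from 43.1 to 52.3 CPM at 24 h, from 44.5 to 55.9 CPM at 24 h with TNF, from 154 to 198 CPM at 72 h and from 41.9 to 91.2 CPM at 72 h with TNF (interaction -1.39 ± 0.28, adjusted p = 0.035, and 0.0997 with the 12 libraries). *Slc30a1* was kept in 4 of the 12 fits without 1 library. *Slc14a1*, the urea transporter UT-B, was at 2.12 to 2.28 CPM, 1.71 to 4.35 CPM, 12.2 to 16.8 CPM and 1.5 to 3.32 CPM in the same order (interaction -3.01 ± 0.56, adjusted p = 0.0212). In all 3 the levels at 72 h without TNF lay above those of the other 3 conditions.

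Among the genes with secreted or membrane products, *Chgb* (chromogranin B of secretory granules) went from 1.71 to 2.8 CPM at 24 h to 12.0 to 20.9 CPM at 72 h without TNF, and from 0.826 to 1.95 CPM to 0.375 to 0.812 CPM with it (interaction -4.08 ± 0.51, adjusted p = 0.000911). *Igfbpl1*, an IGF-binding-protein-like gene, was at 1.28 to 1.45 CPM at 24 h, 1.12 to 7.62 CPM at 24 h with TNF, 65.0 to 101 CPM at 72 h and 9.86 to 21.8 CPM at 72 h with TNF (-3.68 ± 0.64, adjusted p = 0.0139, and 0.0666 with the 12 libraries). The interaction of *Igfbpl1* was -2.38 without 24 h TNF replicate 1 and -2.14 without replicate 1 of both TNF conditions. *Fgl2*, a fibrinogen-like protein, was alike in 3 conditions, at 6.44 to 7.32, 4.98 to 9.1 and 6.21 to 10.2 CPM, and at 0.688 to 1.63 CPM at 72 h with TNF (-3.03 ± 0.39, adjusted p = 0.001). *Fgl2* is thus a gene whose treated level fell with time while the untreated one did not change detectably.

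*Ptger3*, a receptor of prostaglandin E2, was at 2.34 to 2.69 CPM at 24 h, 1.24 to 4.79 CPM at 24 h with TNF, 27.0 to 32.3 CPM at 72 h and 2.31 to 7.49 CPM at 72 h with TNF (interaction -2.81 ± 0.57, adjusted p = 0.0363). *Tmem266*, *Got1l1* and *Igsf1* were likewise highest of the 4 conditions at 72 h without TNF, with interactions of -3.77 ± 0.60, -3.77 ± 0.75 and -3.18 ± 0.61 (adjusted p = 0.00665, 0.0295 and 0.0255). That of *Got1l1* was -2.51 without 24 h TNF replicate 1 (adjusted p = 0.141) and -2.13 without replicate 1 of both TNF conditions (adjusted p = 0.0952). *Ggta1*, a glycosyltransferase of the A1 astrocyte list, had an interaction of -2.77 ± 0.59 (adjusted p = 0.0444), with 3.71 to 7.3 CPM at 72 h and 0.845 to 1.16 CPM at 72 h with TNF. *Tm4sf1*, a tetraspanin-like protein of the A2 list, had one of -1.60 ± 0.34 (adjusted p = 0.0439), with 189 to 264 CPM at 72 h and 57.9 to 145 CPM at 72 h with TNF. Of these 6 genes, the 12-library fit called *Tmem266* and not *Ptger3*, *Got1l1*, *Igsf1*, *Ggta1* or *Tm4sf1*.

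*Lars2*, the mitochondrial leucyl-tRNA synthetase, had uneven values within conditions. It was at 272, 244 and 347 CPM at 24 h, 127, 583 and 105 CPM at 24 h with TNF, 1130, 512 and 2250 CPM at 72 h and 103, 101 and 77.0 CPM at 72 h with TNF. The groups overlapped at 24 h and were apart at 72 h, and the spread among the untreated 72 h libraries was 883 CPM (SD) around 1300 CPM. The share of counts on ribosomal RNA genes in those libraries was 0.116%, 0.0341% and 0.0499%, and its part in the *Lars2* values was not tested. The interaction of *Lars2* was -3.71 ± 0.78 (adjusted p = 0.0439, and 0.0927 with the 12 libraries), and -2.47 without 24 h TNF replicate 2 (adjusted p = 0.0821).

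In 7 genes TNF lowered the level at both times, with a larger log2 effect at 72 h, namely *Scara5*, *Glycam1*, *Myh8*, *Stard8*, *Slc38a3*, *Gpr179* and *Tmem108*. The interaction was not called with the 12 libraries for *Myh8*, *Stard8* (adjusted p = 0.0666 each) and *Tmem108* (0.0927). *Scara5*, a ferritin receptor, was at 8.24, 7.44 and 6.84 CPM at 24 h, 2.83, 1.86 and 2.42 CPM at 24 h with TNF, 35.2, 47.2 and 37.3 CPM at 72 h and 1.92, 1.33 and 2.0 CPM at 72 h with TNF. Treated and untreated libraries were apart at both times, by 3.14-fold at 24 h and 22.7-fold at 72 h, and the interaction was -2.86 ± 0.35 (adjusted p = 0.000865). *Slc38a3*, the glutamine transporter SNAT3, was more abundant, with 163, 168 and 164 CPM at 24 h, 76.5, 69.1 and 83.1 CPM at 24 h with TNF, 239, 287 and 285 CPM at 72 h and 62.7, 45.0 and 51.7 CPM at 72 h with TNF (interaction -1.23 ± 0.18, adjusted p = 0.00266). *Myh8*, a perinatal skeletal muscle myosin, differed from the other 6, since it fell over time without TNF as well, from 53.5 to 54.6 CPM to 7.49 to 14.0 CPM, and it was at 0.282 to 0.696 CPM at 72 h with TNF. Of these 7 genes all but *Scara5* were named after their values were seen.

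**Figure D4:**
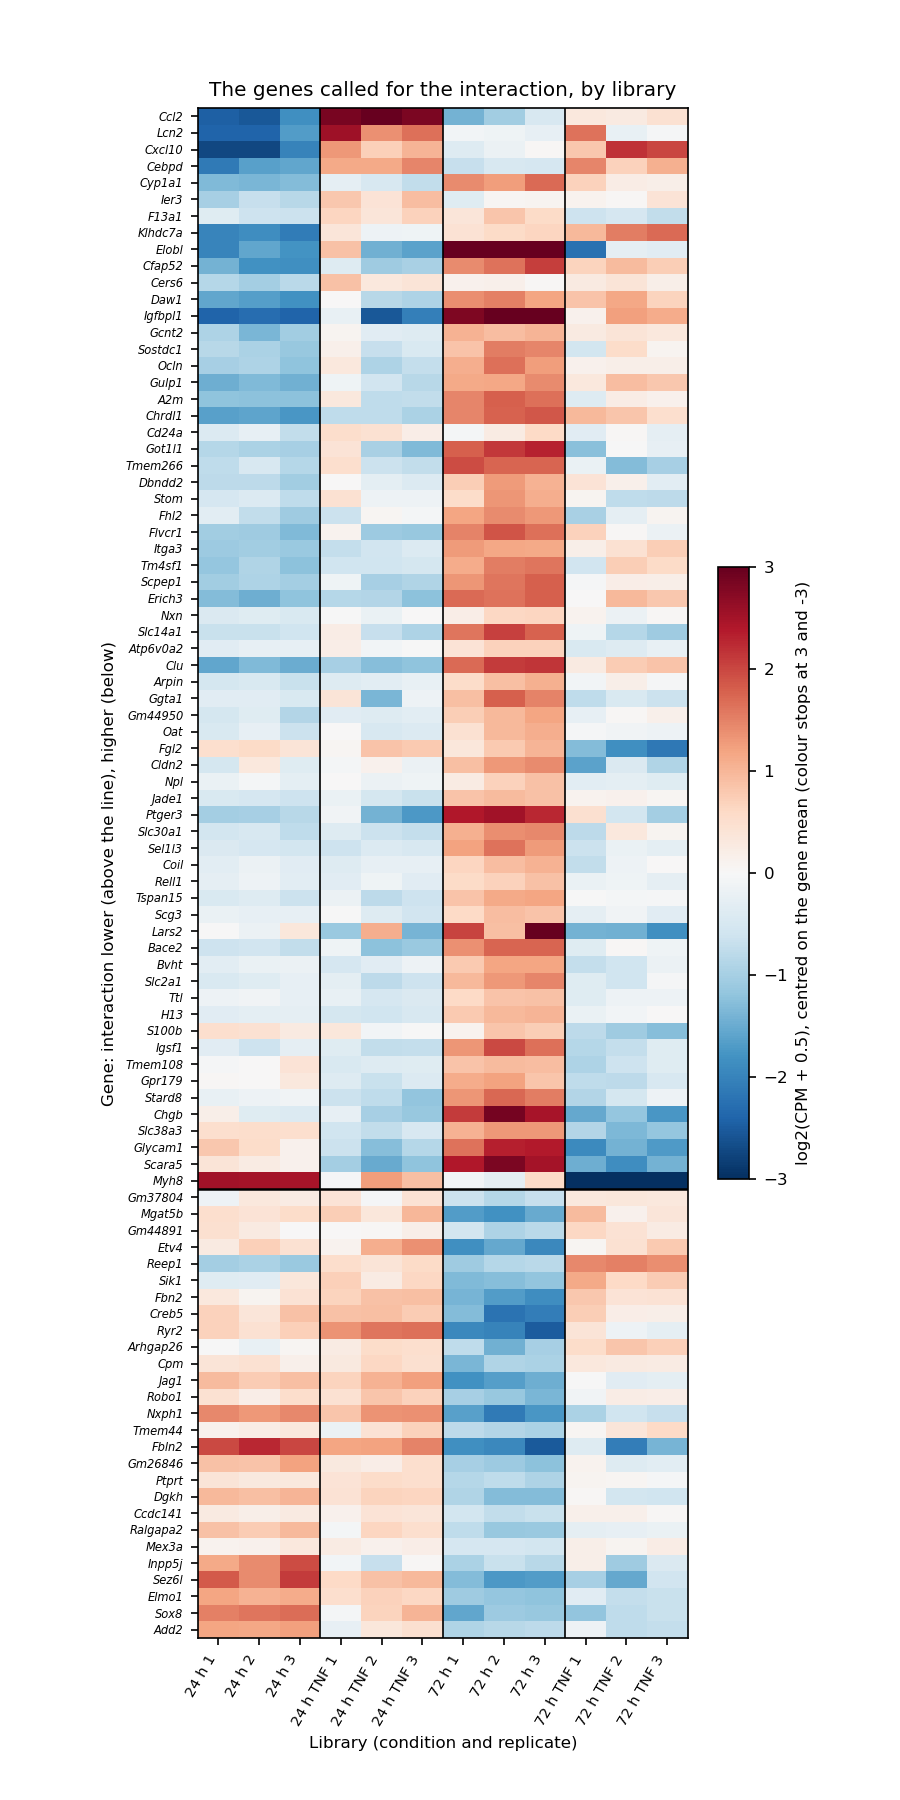
The 92 genes with an interaction (rows) in the 12 libraries (columns), as log2(CPM + 0.5) centred on the mean of the gene, with red above and blue below it. The 65 genes above the line (lower interaction) are mostly red at 72 h without TNF, and the 27 below it (higher interaction) mostly blue there.

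Of the 27 genes with a higher effect at 72 h, 1 was a member of the Notch list and 1 of the EGF, FGF and ERK list. In *Jag1*, a Notch ligand, the untreated level fell from 22.7, 19.9 and 21.7 CPM at 24 h to 2.88, 3.31 and 3.8 CPM at 72 h. With TNF it was at 18.5, 24.1 and 27.7 CPM at 24 h and at 11.4, 8.88 and 9.26 CPM at 72 h. The groups overlapped at 24 h and were apart at 72 h. The effect was 0.13 at 24 h and 1.55 at 72 h (interaction 1.42 ± 0.23, adjusted p = 0.00884), and *Jag1* and *Mgat5b* were the 2 genes of this direction kept in every fit without 1 library.

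*Etv4*, an ETS factor induced by FGF and ERK signalling, was at 13.4, 18.5 and 15.2 CPM at 24 h, 11.8, 24.0 and 29.0 CPM at 24 h with TNF, 2.72, 3.44 and 2.53 CPM at 72 h and 11.4, 15.3 and 19.3 CPM at 72 h with TNF. The treated level at 72 h overlapped the untreated level at 24 h. Its interaction was 1.94 ± 0.38 (adjusted p = 0.0266, and 0.0898 with the 12 libraries). *Creb5*, a CREB-family factor, was at 56.3, 44.8 and 64.1 CPM, 63.8, 65.2 and 59.1 CPM, 13.7, 6.99 and 7.76 CPM and 57.8, 39.7 and 39.0 CPM in the same order. The treated 72 h levels again overlapped the untreated 24 h levels (interaction 2.08 ± 0.37, adjusted p = 0.0147). *Creb5* shares exonic positions with *Gm25818* on the same strand.

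The matrix protein genes *Fbn2* and *Fbln2* were called in this direction, while the collagens and matrix list had 0 of 24 called, a median interaction of -0.38 and 16 of 24 below 0. *Fbn2*, the microfibril protein fibrillin 2, was at 36.7, 31.5 and 40.0 CPM at 24 h, 47.2, 54.7 and 55.7 CPM at 24 h with TNF, 10.9, 8.83 and 7.7 CPM at 72 h and 52.0, 39.6 and 39.9 CPM at 72 h with TNF (interaction 1.72 ± 0.30, adjusted p = 0.0139). *Fbln2*, the matrix protein fibulin 2, fell in both arms, from 39.8, 48.5 and 40.1 CPM to 2.35, 2.15 and 1.27 CPM without TNF and from 22.6, 22.9 and 28.1 CPM to 7.21, 1.92 and 3.38 CPM with it. Its groups overlapped at 72 h, and the interaction of 1.95 ± 0.42 (adjusted p = 0.0447, and 0.144 with the 12 libraries) was kept in 2 of the 12 fits without 1 library. The interaction of *Fbln2* was 1.29 without 72 h TNF replicate 1 (adjusted p = 0.0633).

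The kinase *Sik1* had an interaction of 1.65 ± 0.34 (adjusted p = 0.0363), with 2.19 to 2.48 CPM at 72 h and 9.75 to 14.4 CPM at 72 h with TNF. The glycosyltransferase *Mgat5b* had one of 2.69 ± 0.39 (adjusted p = 0.00307), with 0.429 to 0.66 CPM against 3.08 to 5.86 CPM. For *Nxph1*, a ligand of neurexins, it was 1.46 ± 0.29 (adjusted p = 0.035), with 1.41 to 2.19 CPM against 3.78 to 4.93 CPM. The gene *Cpm*, which encodes carboxypeptidase M, had one of 1.44 ± 0.31 (adjusted p = 0.0446). In all 4 every treated library lay above every untreated one at 72 h, as in 12.7% of all genes tested. The 12-library fit called only *Mgat5b* (adjusted p = 0.0666 for *Sik1* and *Nxph1* and 0.0728 for *Cpm*), and *Cpm* was kept in 0 of the 12 fits without 1 library. *Arhgap26*, which overlaps *Gm15336* and *Gm15337* on the other strand, had an interaction of 1.29 ± 0.27 (adjusted p = 0.0439, and 0.0574 with the 12 libraries), and *Gm26846*, a noncoding gene that overlaps *Ephb1*, one of 1.75 ± 0.37 (adjusted p = 0.0439).

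*Sox8*, *Add2*, *Sez6l* and *Inpp5j* reached the same sign from the other side, since TNF lowered them at 24 h and was not called at 72 h. *Sox8*, an SRY-box factor of the oligodendrocyte lineage and glia, was at 84.9, 90.6 and 94.9 CPM at 24 h, 28.2, 47.1 and 59.7 CPM at 24 h with TNF, 9.61, 13.6 and 13 CPM at 72 h and 12.6, 17 and 18.3 CPM at 72 h with TNF. The groups were apart at 24 h and overlapped at 72 h. Interactions were 1.40 ± 0.31 for *Sox8* (adjusted p = 0.0479), 1.29 ± 0.24 for the membrane skeleton gene *Add2* (adjusted p = 0.0218), 1.68 ± 0.34 for *Sez6l* (adjusted p = 0.0363) and 2.75 ± 0.59 for the phosphatase gene *Inpp5j* (adjusted p = 0.0446). None of the 4 was called in the 12-library fit, where the adjusted p-values were 0.106, 0.0666, 0.0927 and 0.0842, and the summed oligodendrocyte lineage markers given above moved in the same direction, with a part that was not tested. *Sox8*, *Add2* and *Inpp5j* overlap *2810468N07Rik*, *Gm44089* and *Pla2g3* on the other strand.

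*Reep1* and *Ryr2*, named after their values were seen, were raised at both times. *Reep1*, an endoplasmic reticulum shaping protein, was at 71.6, 75.5 and 67.2 CPM at 24 h, 208, 189 and 215 CPM at 24 h with TNF, 69.2, 79.6 and 82.1 CPM at 72 h and 393, 413 and 382 CPM at 72 h with TNF. Its untreated level was steady and its treated level rose further, which no other gene of the 92 did (interaction 0.85 ± 0.16, adjusted p = 0.0218). The call of *Reep1* was lost with the replicate block that leaves 72 h replicate 3 unpaired (adjusted p = 0.0945). *Ryr2*, a calcium release channel, was at 207 to 244 CPM, 380 to 474 CPM, 26.1 to 38.7 CPM and 125 to 196 CPM in the order used above. The log2 effect was 0.92 at 24 h and 2.17 at 72 h, while the difference in CPM was 207 at 24 h and 118 at 72 h. The interaction of *Ryr2* was not called with the 12 libraries (adjusted p = 0.0692), with the replicate block (0.0564) or without replicate 1 of both TNF conditions (0.128), and was kept in 2 of the 12 fits without 1 library.

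Of the 92 genes, 4 had an interaction of opposite sign when the TNF difference was taken in CPM and not as a log2 ratio, namely *Cxcl10*, *Klhdc7a* (named, like *Myh8* and *Ryr2*, after its values were seen), *Myh8* and *Ryr2*. For the other 88 the sign was the same on both scales.

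Of the 438 genes that TNF raised at 24 h, 18 (4.11%) had a called interaction, against 0.458% of all genes tested. These 438 were called with the same 24 h libraries, so the shares are a description. At the share over all genes, lists of the sizes below would hold about no called gene, so a count of 0 is no result about a list. *Nfkbia*, the target that reports NF-kB activity, was at 24.1, 30.4 and 27.9 CPM at 24 h, 151, 135 and 161 CPM at 24 h with TNF, 16, 23.3 and 26.6 CPM at 72 h and 156, 146 and 158 CPM at 72 h with TNF. Its levels with TNF overlapped between the 2 times, and the effects of 2.44 and 2.80 gave an interaction of 0.36 ± 0.23 (adjusted p = 0.628). In the list of NF-kB inhibitors and feedback genes 17 of 20 members were tested, none was called for the interaction, and the median interaction was -0.04, against -0.01 over all genes tested. TNF raised 6 of these 17 at 24 h and 7 at 72 h. *Cyld*, the deubiquitinase that restrains the pathway, had an interaction of 0.12 ± 0.20.

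The subunit list had the same count of calls, with 0 of 5, and *Nfkb1* and *Rela* gave -0.29 ± 0.14 and -0.16 ± 0.21. In the MHC class I list TNF raised 9 of 16 genes at 24 h and 7 at 72 h, and none had a called interaction. *B2m*, the light chain of MHC class I, had effects of 1.06 and 0.89 (interaction -0.18 ± 0.24). Among interferon-stimulated genes 0 of 28 were called, with *Ifit2* at -0.36 ± 0.24 and *Ifi27* at -0.24 ± 0.33. The lists of cytokines (0 of 10, *Csf1* at -0.26 ± 0.15), TNF receptors and death signalling (0 of 9, *Fas* at -0.66 ± 0.23) and adhesion molecules (0 of 16) were alike in this. Members with an interaction below 0 were 5 of 10, 8 of 9 and 7 of 16 in that order. Their median interactions were -0.12, -0.36 and 0.2. In the MHC class I and interferon lists 12 of 16 and 18 of 28 were below 0, with medians of -0.19 each. *Icam1* and *Ptx3* did not pass the filter on low counts.

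For other lists the number of members with an interaction below 0 is given as a description, beside 10272 of the 20067 genes tested. In the pan-reactive astrocyte list 11 of 13 members had an interaction below 0, the median was -1.28, and 2 were called (*Lcn2* and *Cxcl10*). TNF raised 7 of the 13 at 24 h, with a median effect of 2.04, and 3 at 72 h, with one of 0.81. At 72 h TNF also lowered 1 of the 13, *Gfap* (-2.31, adjusted p = 0.0128). *Osmr*, the oncostatin M receptor, was at 10.1, 9.11 and 10.3 CPM at 24 h, 63.9, 28.2 and 28.7 CPM at 24 h with TNF, 43.7, 46.6 and 40.9 CPM at 72 h and 114, 64.8 and 55.4 CPM at 72 h with TNF, with an interaction of -1.21 ± 0.40 (unadjusted p = 0.00747 by edgeR, adjusted p = 0.257). In both TNF conditions replicate 1 was the highest. *Sbno2* and *Cebpb* gave -0.45 ± 0.33 and -1.45 ± 0.43 (adjusted p = 0.681 and 0.181), and *Timp1* gave 1.24 ± 0.90 (adjusted p = 0.673).

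In the complement list 12 of 13 members were below 0, with a median of -0.68 and no call. *C3* was at 1.21, 1.73 and 6.76 CPM at 24 h, 356, 89.6 and 104 CPM at 24 h with TNF, 104, 128 and 117 CPM at 72 h and 1520, 1360 and 1380 CPM at 72 h with TNF. Its interaction was -2.26 ± 0.69 (adjusted p = 0.208), although the highest levels were at 72 h with TNF. *C4b* gave -2.37 ± 0.57 (adjusted p = 0.0803). In the gp130 and JAK-STAT list 12 of 15 were below 0 with a median of -0.45 and no call, and *Stat3* gave -0.40 ± 0.17 (adjusted p = 0.44).

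The mature astrocyte list had 25 members tested, of which 16 were below 0, with a median of -0.58 and 2 calls (*Clu* and *S100b*). *Gfap*, the intermediate filament of astrocytes, was at 864, 883 and 949 CPM at 24 h and 1850, 3170 and 2270 CPM at 72 h without TNF, and its interaction of -2.43 ± 0.77 did not pass (adjusted p = 0.232). *Gpld1*, an astrocyte-enriched phospholipase, was at 14.4, 12.6 and 12.7 CPM at 24 h, 7.68, 7.23 and 8.79 CPM at 24 h with TNF, 58.3, 74.5 and 70.1 CPM at 72 h and 21.7, 27.9 and 28.5 CPM at 72 h with TNF. TNF lowered *Gpld1* at both times, by 0.74 and 1.38 (log2), and the interaction was -0.64 ± 0.27 (adjusted p = 0.427).

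In the list of glycogen and glucose handling, whose 30 symbols matched 31 tested genes, 23 were below 0 with a median of -0.31 and 1 call (*Slc2a1*). All 18 genes of the metallothionein and antioxidant list were below 0, with a median of -0.33 and 1 call (*Slc30a1*, not called with the 12 libraries). In the motile cilium list 21 of 24 were below 0, with a median of -0.76 and no call, and *Foxj1*, the master factor of motile cilia, gave -0.71 ± 0.29 (adjusted p = 0.399). The ependymal markers given above moved with this list and their part was not tested. The ciliary genes *Cfap52* and *Daw1*, which are not in it, were called and were named after their values were seen. *Daw1* was not called with the 12 libraries (adjusted p = 0.0666) and was kept in 5 of the 12 fits without 1 library.

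In the opposite direction stood the cell cycle list, with 5 of 30 members below 0, a median of 0.55 and no call. *Mki67*, a marker of cycling cells, was at 42.7, 37.6 and 42.9 CPM at 24 h, 14.4, 38.0 and 29.4 CPM at 24 h with TNF, 1.44, 1.35 and 1.38 CPM at 72 h and 10.0, 1.62 and 1.75 CPM at 72 h with TNF. Replicate 1 was the lowest with TNF at 24 h and the highest at 72 h, and the interaction was 2.29 ± 0.68 (adjusted p = 0.188). *Ccnb1* gave 0.75 ± 0.70 and *Egr1* -0.76 ± 0.81. The Notch list had a median of 0.43 over 17 genes with 1 call (*Jag1*), the EGF, FGF and ERK list one of 0.32 over 20 with 1 call (*Etv4*), and the oligodendrocyte lineage list one of 0.42 over 18 with no call.

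The remaining lists held 1 called member in all, *Ier3* among 24 immediate early genes, apart from *Ccl2* and *Cxcl10* among 9 chemokine genes, *Ggta1* among 9 A1 genes and *Tm4sf1* among 10 A2 genes. Of the A1 genes 8 of 9 had an interaction below 0 (median -0.82), and of the A2 genes 6 of 10 (median -0.23). There was no call among neuronal and proneural genes (17), smooth muscle type contractile genes (18), collagens and matrix (24), matrix proteases and inhibitors (16), BMP, TGF-beta and ID genes (22), sterol and fatty acid synthesis (22), and ATF4 and unfolded protein response genes (18). Of the markers of microglia, endothelium and pericytes none was called either. Their medians ran from -0.98 for the 3 pericyte and fibroblast markers to 0.25 for the 5 endothelial ones.

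**Figure D5:**
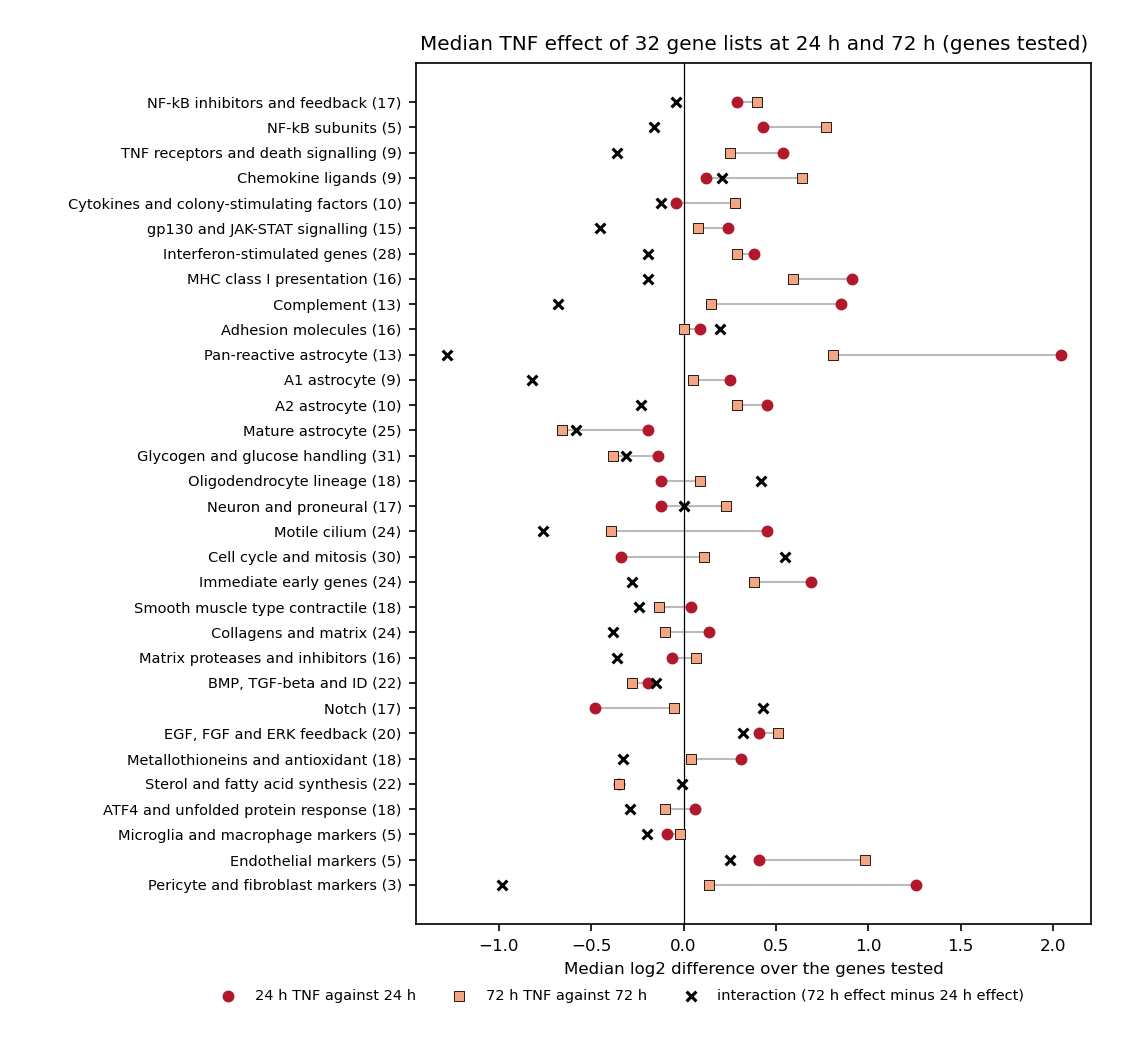
Median log2 TNF effect at 24 h (red circles) and at 72 h (orange squares) and median interaction (crosses) over the tested members of 32 gene lists, with their number in brackets. The pan-reactive astrocyte list has the largest distance, from 2.04 at 24 h to 0.81 at 72 h.

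The 1 week libraries give the untreated levels at a later time. They are no term of the interaction, but they entered the fit that called it. Of the 55 genes with a lower interaction that TNF lowered at 72 h, 42 had all 3 of the 1 week libraries below all 3 untreated 72 h libraries (76.4%). Over all 1046 genes that TNF lowered at 72 h this share was 41.3%, and over all genes tested 14.3%. In 36 of the 55 (65.5%, against 36.4% of the 1046) the mean at 1 week was nearer to that at 72 h with TNF than to that at 72 h. The 72 h libraries enter both measures, so a high value in them raises both. *Elobl*, *Glycam1*, *Slc14a1*, *Chgb* and *Ptger3* were of this kind, with 1 week levels of 3.18 to 5.0, 0.603 to 0.883, 0.329 to 1.06, 1.37 to 1.76 and 4.55 to 5.1 CPM.

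Not all genes returned. *Tmem266* was at 8.73 to 11.2 CPM at 1 week, the secretase gene *Bace2* (named after its values were seen) at 367 to 420 CPM and *Slc2a1* at 84.6 to 103 CPM, close to or above their untreated 72 h levels of 7.98 to 9.31, 386 to 501 and 63.4 to 89.7 CPM. In 44 of the 65 genes (67.7%) every untreated 72 h library lay above all NSP, 24 h and 1 week libraries, against 25.7% of the 2439 genes that rose from 24 h to 72 h without TNF and 4.33% of all genes tested. In 12 of the 27 genes with a higher interaction (44.4%) every untreated 72 h library lay below the others, against 12.4% of the 2531 that fell and 2.35% of all. The untreated 72 h and 24 h libraries enter both the interaction and these patterns. The excess over the other shares is therefore in part built in, and these counts are no separate test.

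The genes also differed in length. The median span from start to end was 95729 bases for the 27 genes with a higher interaction and 30342 bases for the 65 with a lower one, against 25214 bases for the protein-coding genes tested, and 24 of the 27 and 63 of the 65 were protein-coding.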

How the data were processed

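Total RNA was extracted with TRIzol, depleted of ribosomal RNA and sequenced as stranded paired-end libraries. The authors deposited raw gene counts without normalization, made with Trim Galore, STAR, SAMtools and featureCounts on mm10 (versions, and the strand setting of the counting, not given in the sources used here), and tested them with DESeq2. Reads of overlapping genes may therefore be split between them. Besides those given with their values, *Fbn2* overlaps *Gm26507* on the other strand, *Cebpd* *Spidr*, *Slc30a1* *1700034H15Rik* and *Scpep1* *Scpep1os*. So do *Cfap52* (*9130017K11Rik*), *Gcnt2* (*A730081D07Rik* and *Gm31683*), *Atp6v0a2* (*4930404A12Rik*) and *Tmem108* (*Gm16252*). On the same strand *Dbndd2* overlaps *Gm20458* and *Klhdc7a* overlaps *Mir2139*.

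The counts of all 18 libraries were fitted here with edgeR 4.0.16 (R 4.3.3), with a mean per condition, TMM normalization, filterByExpr by condition and the quasi-likelihood test. P-values were Benjamini-Hochberg adjusted over 20067 genes and called under 0.05. SE is the size of the log2 difference divided by the square root of F. Total counts of the 12 libraries were 12509693 to 19106651, and intervals cover counting error only. Named genes were those called, with a mean over the 12 libraries of 1 CPM or more, and among the 15 largest in a direction or in a gene list, together with markers named in the study's text on TNF and up to 2 abundant members of a list without calls. The comparison, the 32 lists and the named markers were chosen with earlier results of these data known. Others were named after their values were seen, and the text says so.

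In data simulated for the TNF-by-time interaction (19774 genes), edgeR found 2% of genes changed by 0.5 (log2), 26.5% of those changed by 1, 70% by 2 and 85.7% by 3, with 4 false calls. These were 4.21% of its calls, and DESeq2 made 17 false calls (14.5%). The simulation gave all libraries of a gene the same spread and held no library that stood apart. Its false calls are therefore not the error rate of these data. Alternatives were DESeq2 1.42.0, RLE size factors, other count filters, only 12 libraries, and limma 3.58.1 voom with sample weights on those 12 libraries. Further ones were replicate blocks, a change of at least 1 (log2) and each library left out. Promoter windows came from RefSeq (GRCm38.p6), and 11888 of 20060 symbols had one. Figures were drawn with matplotlib 3.10.9.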

Additional observations from a re-analysis of the deposited data

Results flagged for a closer look

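The TNF effect differed between 24 h and 72 h, by the test of the interaction itself in edgeR at an adjusted p-value under 0.05, in 92 genes. Of the 37 that were named by the rule given with the processing, 22 had a lower effect at 72 h. Their log2 interactions were *Elobl* (-6.14), *Lcn2* (-5.52), *Ccl2* (-5.23), *Cyp1a1* (-4.13), *Chgb* (-4.08), *Cxcl10* (-3.84), *Tmem266* (-3.77), *Got1l1* (-3.77), *Lars2* (-3.71), *Igfbpl1* (-3.68), *Igsf1* (-3.18). In the other genes of this direction they were *Fgl2* (-3.03), *Slc14a1* (-3.01), *Scara5* (-2.86), *Ptger3* (-2.81), *Ggta1* (-2.77), *Ier3* (-2.04), *Clu* (-1.63), *Tm4sf1* (-1.6), *Slc30a1* (-1.39), *Slc2a1* (-1.39), *S100b* (-1.32).

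The effect was higher at 72 h in 15 named genes, with log2 interactions of *Add2* (1.29), *Arhgap26* (1.29), *Sox8* (1.4), *Jag1* (1.42), *Cpm* (1.44), *Nxph1* (1.46), *Sik1* (1.65), *Sez6l* (1.68), *Fbn2* (1.72), *Gm26846* (1.75), *Etv4* (1.94), *Fbln2* (1.95), *Creb5* (2.08), *Mgat5b* (2.69), *Inpp5j* (2.75). The sign did not change for any of these genes in any of the fits run, but the call was lost in 293 of 839 pairs of a gene and a fit.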

How the results depend on the processing

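The number of genes with an interaction depended on the fit, from 92 (27 higher, 65 lower) to 244 (92 and 152) with DESeq2. With only the 12 libraries it was 38 (8 and 30) in edgeR. On the same 12 libraries limma voom with sample quality weights gave 1835 (949 and 886). Those weights ran from 0.27 for 24 h TNF replicate 1 to 6.82 for 72 h replicate 2. The fits without 1 library gave 25 to 133 genes (2 to 52 higher, 22 to 91 lower). Without replicate 1 of both TNF conditions, a choice made after seeing the data, it was 138 (54 and 84). Shared with the 92 were 88 genes in DESeq2, 34 in the 12-library fit and all 92 in voom. The TNF effect at 24 h was called for 1920 genes with voom, 373 at a change of at least 1 (log2) and 360 to 922 without 1 library. That at 72 h was called for 6524, 987 and 965 to 2922 genes. RLE size factors, the other count filters and a change of at least 1 kept the interaction count within 1.5 times. The cause of these differences was not tested.

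After each condition's mean was subtracted from log2 CPM, the deviations of same-numbered libraries were correlated across genes. These correlations were 0.291, 0.255 and 0.266 between the TNF conditions and -0.371 to 0.255 between the others. Every pair thus passed 0.1 between the TNF conditions only, and the numbers were not taken as a pairing of all 4. The 72 h column matched to replicate 3 also carries another number. With the replicate block 65 genes had an interaction, 62 of them among the 92. Named genes that lost the call under the block were *Got1l1* (0.0528), *S100b* (0.0538), *Gm26846* (0.0538), *Nxph1* (0.0578), *Ier3* (0.0639), *Arhgap26* (0.0641), *Cpm* (0.0641), *Fbln2* (0.0641), *Lars2* (0.0689), *Ggta1* (0.0712) and *Inpp5j* (0.0712), with edgeR's adjusted p in brackets. *Ryr2* (0.0564), *Tmem108* (0.059) and *Klhdc7a* (0.0641) lost it too. With 72 h replicate 3 unpaired the block gave 24 (4 and 20), and 986 genes for TNF at 72 h. That fit kept the call of 12 of the 37 named genes, *Lcn2*, *Ccl2*, *Cyp1a1*, *Chgb*, *Tmem266*, *Fgl2*, *Scara5*, *Clu*, *Sox8*, *Jag1*, *Creb5* and *Mgat5b*, and lost it for 25, among them *Elobl* (0.0514), *Slc2a1* (0.053), *Etv4* (0.0659), *Fbn2* (0.0676), *Igsf1* (0.0932), *Igfbpl1* (0.0987), *Ptger3* (0.0988), *Slc14a1* (0.104), *Add2* (0.115), *Sik1* (0.14) and *Cxcl10* (0.146), and the others at 0.162 to 0.302. Of the genes named after their values were seen, the same fit lost *Gcnt2* (0.0829), *Myh8* (0.0897), *Reep1* (0.0945), *Daw1* (0.0987), *Cebpd* and *Stard8* (0.0988 each). It also lost *Cfap52* (0.102), *Bace2* (0.104), *Tmem108* (0.167), *Ryr2* and *Klhdc7a* (0.203 each). On only the 12 libraries, added after seeing the data, the replicate block gave 57 (15 and 42).

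Depth limits the low genes: *Ccl2*, *Cxcl10* and *Lcn2* had at most 6, 4 and 4 counts in any untreated 24 h library, so their folds at 24 h depend on the prior count of the fit.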
